A study of Homo sapiens with 18 samples.

Results

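The 35 genes described here make sterols and fatty acids or control how much of them a cell makes. They were taken by gene symbol from the deposited RNA-seq table of 14177 genes, and the set was chosen with earlier results of these data known. They comprise 19 sterol enzymes (8 of the mevalonate pathway and 11 between squalene and cholesterol), 8 fatty acid enzymes, 7 regulators of the SREBP transcription factors and the sterol carrier STARD4. All 35 passed the filter on low values and were among the 13697 genes tested.

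RNA came from HEK293T, an established human embryonic kidney line, with 3 libraries from the parental line and 3 from lines in which UBR7 was targeted by CRISPR-Cas9 (UBR7KO). The UBR7KO libraries are KO1-1 and KO1-2, from line KO1, and KO2-1, from line KO2. No treatment is named for either genotype, and the labels do not say how each line was derived. Matching date codes pair KO1-1 with parental 1 and KO1-2 with parental 2 (the dated pairs). KO2-1 and parental 3 carry no date and were taken as the undated pair (all 3 are called date pairs below), so line KO2 and that preparation cannot be told apart. ATAC-seq, which reads open chromatin, had 2 libraries of each genotype. Both UBR7KO ATAC libraries carry the sample label of KO2-1, and none is labelled as line KO1. GFP ChIP-seq had 1 library of HEK293T cells with GFP joined to endogenous UBR7. The labels do not give separate cultures for the replicates, so the p-values below measure the spread between these libraries, which may be technical. Limma takes part or all of a gene's error from the spread of other genes.

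Library totals ran from 22153291 to 29811908 reads. UBR7 itself stood at 55.0, 62.2 and 62.2 CPM (reads of a gene scaled to a fixed library total) in parental 1, 2 and 3, at 27.0 and 26.3 CPM in KO1-1 and KO1-2, and at 64.5 CPM in the library labelled KO2. Every direction drawn below from that library rests on its label, which its UBR7 RNA level does not bear out. All 8 genes on a list of HEK293-type markers were listed, with summed levels of 777 to 1120 CPM in parental and 815 to 1184 CPM in UBR7KO libraries. VIM, at 487 to 830 CPM over the 6 libraries, made up most of each sum. PAX2 and LHX1 were low, at 0.721 to 1.92 and 1.07 to 3.81 CPM. None of 6 hepatocyte and none of 3 keratinocyte markers was listed in the table, and of 5 adipocyte markers 1 was, LPL, at 2.88 to 3.16 CPM in parental and 2.48 to 4.02 CPM in UBR7KO libraries. Of 5 fibroblast markers 3 were listed (COL1A1, COL3A1 and LUM), with summed levels of 14.2 to 21.3 CPM in parental and 7.35 to 15.0 CPM in UBR7KO libraries, while COL1A2 and DCN were not. Of 4 blood markers, LYZ alone was listed, at 0.406 to 1.61 CPM over the 6 libraries. Whether these marker levels bear on the members was not tested.

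Cells build cholesterol from acetyl-CoA through mevalonate, isoprenoid diphosphates, squalene and lanosterol, and build fatty acids from the same acetyl-CoA. SREBP proteins, the products of SREBF1 and SREBF2, lie in the endoplasmic reticulum membrane bound to SCAP. When sterols are plentiful the INSIG proteins hold SCAP there; when sterols are scarce SCAP carries SREBP to the Golgi, where the proteases MBTPS1 and MBTPS2 release the part that enters the nucleus. SREBP-2 is best known for driving sterol genes and SREBP-1 for driving fatty acid genes, and both bind sterol regulatory elements beside sites for the factors NF-Y and Sp1. INSIG1 is itself a target of SREBP, which closes a feedback loop.

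The promoters of 5 members are shown because these genes lead the account of sterol synthesis below: SREBF2, INSIG1 and the 3 sterol enzymes IDI1, FDPS and MSMO1. Each line gives the 250 bases before an annotated start, 5′ to 3′ on the gene's own strand, from RefSeq on build GRCh38.p14. Capitals mark CCAAT, the core of an NF-Y site, or its reverse complement ATTGG, and TCACNCCAC, a core of the sterol regulatory element.
SREBF2 (chr22:41832855-41833104, plus strand): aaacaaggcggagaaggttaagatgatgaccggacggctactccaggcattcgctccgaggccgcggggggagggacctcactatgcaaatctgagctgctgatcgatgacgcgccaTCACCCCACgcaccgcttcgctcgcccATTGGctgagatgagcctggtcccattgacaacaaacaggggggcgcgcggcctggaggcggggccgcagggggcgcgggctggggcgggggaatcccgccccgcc
INSIG1 (chr7:155297628-155297877, plus strand): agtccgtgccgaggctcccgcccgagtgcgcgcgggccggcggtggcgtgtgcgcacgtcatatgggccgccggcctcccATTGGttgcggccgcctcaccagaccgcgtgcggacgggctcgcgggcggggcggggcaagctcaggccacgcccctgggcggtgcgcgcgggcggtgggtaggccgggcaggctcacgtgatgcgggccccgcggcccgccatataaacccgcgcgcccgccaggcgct
IDI1 (chr10:1048887-1049136, minus strand): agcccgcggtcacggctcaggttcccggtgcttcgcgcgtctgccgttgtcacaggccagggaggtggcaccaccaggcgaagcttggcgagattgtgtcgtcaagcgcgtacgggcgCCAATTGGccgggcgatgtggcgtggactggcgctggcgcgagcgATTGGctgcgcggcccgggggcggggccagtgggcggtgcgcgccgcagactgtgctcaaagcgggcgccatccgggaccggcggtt
FDPS (chr1:155308616-155308865, plus strand): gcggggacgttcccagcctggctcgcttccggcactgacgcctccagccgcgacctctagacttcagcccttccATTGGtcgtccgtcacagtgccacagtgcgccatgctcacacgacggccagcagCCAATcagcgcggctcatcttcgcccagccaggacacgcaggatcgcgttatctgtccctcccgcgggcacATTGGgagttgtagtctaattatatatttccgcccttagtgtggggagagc
MSMO1 (chr4:165327419-165327668, plus strand): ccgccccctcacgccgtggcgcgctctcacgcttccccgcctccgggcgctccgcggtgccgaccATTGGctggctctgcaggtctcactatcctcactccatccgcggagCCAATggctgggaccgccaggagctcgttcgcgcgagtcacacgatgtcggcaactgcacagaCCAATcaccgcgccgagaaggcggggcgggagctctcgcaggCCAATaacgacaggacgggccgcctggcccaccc
The match to TCACNCCAC in SREBF2 reads TCACCCCAC and begins 133 bases before the start, and the ATTGG beside it begins 106 bases before the start. MSMO1 holds 4 CCAAT matches, FDPS 3 and INSIG1 1. IDI1 holds 3 in the window shown, of which a pair overlap in the palindrome CCAATTGG, and it has other annotated starts that are not shown.

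Promoter windows of 250 bases before to 50 bases after a start were found for 31 of the 35 members, and letters were matched exactly on both strands. ACAT2, FDFT1, SQLE and FASN had no window and were not searched. CCAAT occurred in 22 of the 31 (71.0%), against 43.6% of the tested genes with a window and 39.7% of all 27305 genes with one. GGGCGG, the core of an Sp1 site, occurred in 28 of the 31 (90.3%), against 78.9% of tested genes. CACGTG, the E-box that SREBP proteins can also bind, occurred in INSIG1, LSS, SC5D and SCAP (12.9%), the same share as among tested genes (12.9%). TCACNCCAC occurred in SREBF2 alone among the 31 members searched, against 1.41% of tested genes, and it overlaps none of the other motifs in the window shown. Genes with several starts have several windows and more chances of a match, and a match is a run of letters, not a measured binding site.

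UBR7KO and parental libraries were compared first, for transcripts that differ when UBR7 is targeted. Sterol enzymes stood higher in UBR7KO for 18 of 19 members, with a median log2 difference of 0.34, and the 8 mevalonate enzymes lay above 0 without exception (median 0.42). Fatty acid enzymes stood higher for 7 of 8 (median 0.22) and SREBP regulators for 6 of 7 (median 0.16). Over all 35 members the median was 0.27 with 32 above 0, while 53.3% of all tested genes lay above 0 with a median of 0.014. Under every scaling, filter and tool run on the 6 libraries 32 members lay above 0, and in the dated pairs 30 to 32 did, with GGPS1, MVD and EBP near 0 and of either sign. Differences here are of mean log2(CPM + 1), which understates the change of low genes, and in these bulk cultures fewer cells of a kind and less RNA per cell cannot be told apart.

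With limma on the 6 libraries 0 of 35 members passed a Benjamini-Hochberg adjusted p of 0.05, where 0.0% of all tested genes were called in either direction. At an unadjusted p under 0.05, 6 members stood higher (FADS2, FDPS, IDI1, INSIG1, MSMO1 and TM7SF2) and 0 lower, where 0.168% and 0.343% of all tested genes did. The UBR7KO libraries followed the parental libraries of their own pair, so the fit was repeated with the date pair as a block. No member was called there either (lowest adjusted p = 0.313, for IDI1), where 0.0% of all tested genes were called. At an unadjusted p under 0.05, 15 members stood higher, where 3.45% of all tested genes did, and SREBF1 alone stood lower, where 2.06% did. Of the count-based tests on recovered reads with the block, edgeR's quasi-likelihood test called 0 members and DESeq2 called 3: IDI1 (adjusted p = 0.00174), INSIG1 (0.00259) and FDPS (0.0210). With the block, edgeR's test called 0.0% of all tested genes in either direction, and DESeq2 called 0.0876% higher and 0.19% lower. Without the block both tools called 0 members, where edgeR's test called no gene and DESeq2 called 0.0073% higher and 0.0438% lower.

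Pair by pair, the size of the difference varied. The median difference of the sterol enzymes was 0.46 in the pair of KO1-1, 0.28 in that of KO1-2 and 0.43 in that of KO2-1. Fatty acid enzymes had medians of 0.33, 0.28 and 0.11, and SREBP regulators of 0.31, 0.18 and 0.12, in the same order. Medians over all tested genes were −0.0028, 0.067 and −0.018. The members above 0 in all 3 pairs numbered 18, of which 12 were sterol enzymes, 2 fatty acid enzymes (FADS1 and FADS2) and 3 regulators (INSIG1, MBTPS1 and SREBF2), with STARD4 as the last. Of all tested genes 15.5% lay above 0 in all 3 pairs. SREBF1 was the 1 member below 0 in all 3, as were 11.5% of all tested genes. The UBR7KO libraries lay entirely above the parental libraries for 4 members (FADS2, FDPS, IDI1 and TM7SF2), where 1.25% of all tested genes did, and entirely below for 0, where 1.23% did.

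**Figure D1:**
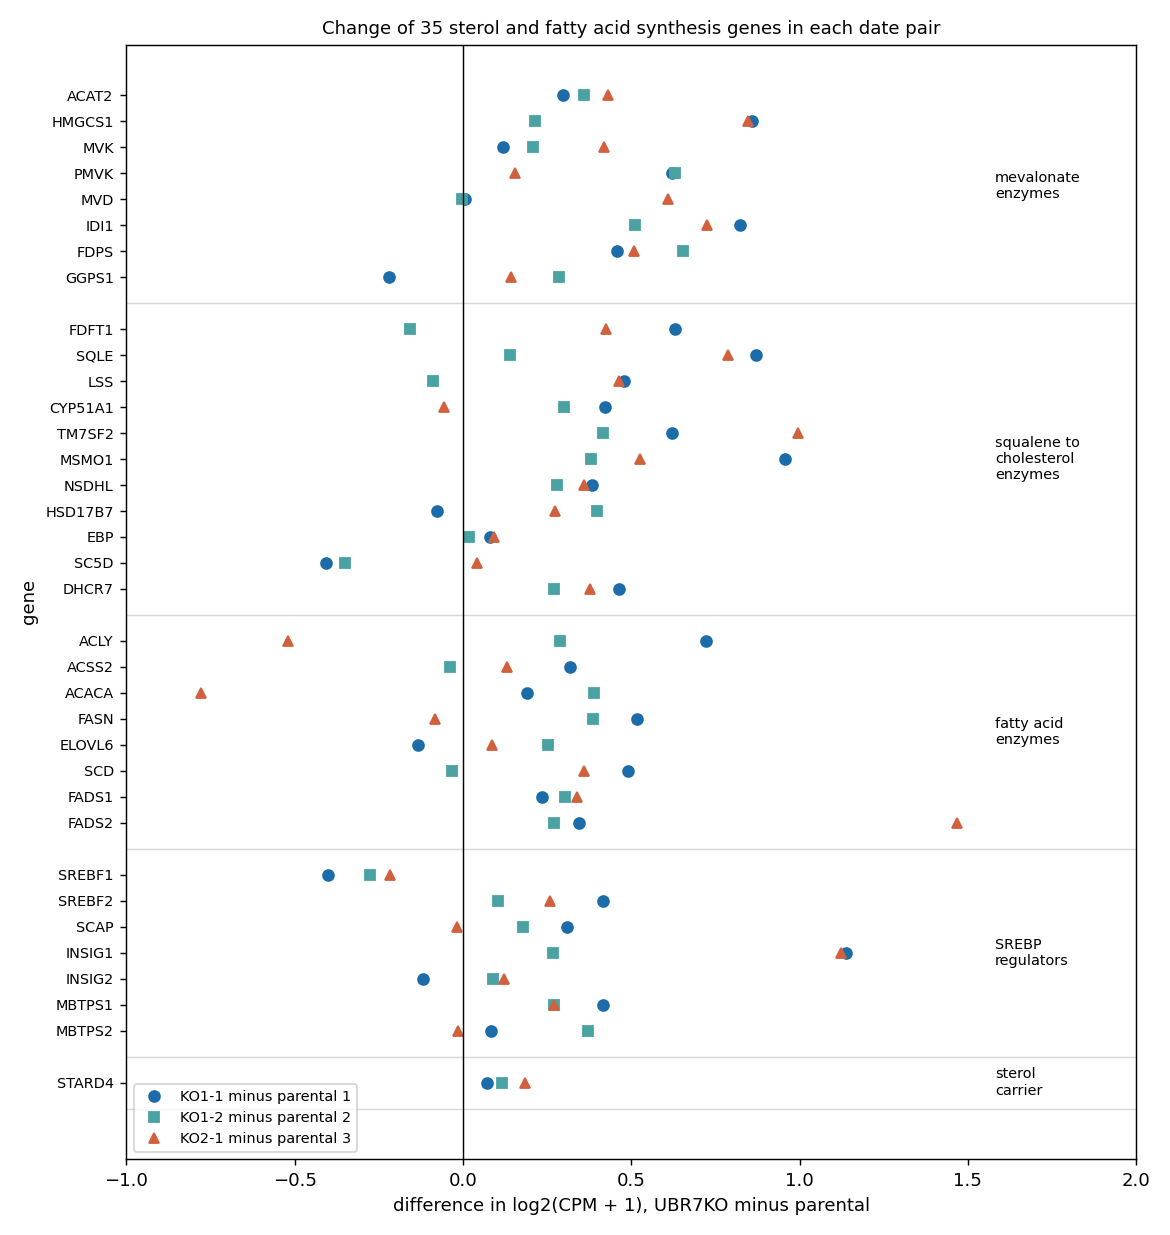
Difference in log2(CPM + 1) between the UBR7KO and the parental library of each date pair (x axis) for each of the 35 genes (y axis), grouped by role. Circles, squares and triangles mark KO1-1, KO1-2 and KO2-1 against their partners. Most points of the sterol enzymes lie to the right of 0, SREBF1 lies to the left in every pair, and ACLY, ACACA and FADS2 have a KO2-1 point far from their KO1 points.

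In the dated pairs (line KO1 and its parental libraries) limma without the block called 0 members, where 0.0% of all tested genes were called. MSMO1 alone stood higher at an unadjusted p under 0.05, and 0 stood lower, where 0.847% and 0.745% of all tested genes did. The KO1 library exceeded its partner in both dated pairs for 24 members, where 36.6% of all tested genes did so. With the date pair as a block 18 members stood higher at an unadjusted p under 0.05, where 10.7% of all tested genes did, and 2 (SC5D and SREBF1) lower, where 5.66% did. After adjustment 7 members rose, 5 sterol enzymes (HMGCS1, PMVK, IDI1, FDPS and MSMO1) and 2 fatty acid enzymes (ACLY and FASN). They are 20.0% of the 35, where 2.23% of all tested genes rose, and 0 members fell, where 1.36% of all tested genes did. That fit leaves 1 residual degree of freedom per gene and takes most of its error from the other genes. Scaling the libraries by TMM moved the calls over all genes from 305 higher and 186 lower to 266 higher and 253 lower. With that scaling, and also with edgeR's quasi-likelihood test with the block, 4 members were called (MSMO1, IDI1, FDPS and PMVK), and DESeq2 with the block called 1 (IDI1, adjusted p = 0.0228). The shares of all tested genes called higher were 1.94% with TMM scaling, 1.74% by edgeR's test and 0.526% by DESeq2, and lower 1.85%, 1.78% and 0.723%. DESeq2 without the block called 0 members, where it called 0.0292% of all tested genes higher and 0.146% lower. Leaving out 1 of the 4 libraries breaks a pair and leaves no block. The differences then ran from −0.16 to 1.23 for HMGCS1, 0.33 to 0.92 for PMVK, 0.34 to 0.99 for IDI1, 0.39 to 0.72 for FDPS, 0.39 to 0.95 for MSMO1, 0.21 to 0.80 for ACLY and 0.21 to 0.69 for FASN. Of these 7, FDPS alone moved by less than 1.5 times.

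The mevalonate pathway begins with ACAT2, which joins 2 acetyl-CoA, and HMGCS1, which adds another to give HMG-CoA. HMGCS1 (ENSG00000112972, chromosome 5, 43289497 to 43313614) had 37.1, 99.4 and 68.6 CPM in parental 1, 2 and 3 and 68.2, 115 and 124 CPM in KO1-1, KO1-2 and KO2-1. Each UBR7KO library exceeded its own partner, but the groups overlapped because the parental libraries themselves spanned 2.68-fold. Its mean was 103 ± 30.1 against 68.4 ± 31.1 CPM (SD, n = 3 each), a log2 difference of 0.64 (SE 0.37, limma adjusted p = 1), and with the block in the dated pairs it rose by 0.54 (SE 0.14, limma adjusted p = 0.0399). ACAT2 averaged 102 ± 30.5 against 78.5 ± 20.1 CPM, with differences of 0.30, 0.36 and 0.43 in the 3 pairs. It overlaps TCP1 and SOD2 on the opposite strand, and whether reads were counted by strand is not stated, so its level may hold reads of those genes.

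Mevalonate is then phosphorylated by MVK and PMVK and decarboxylated by MVD. PMVK (ENSG00000163344, chromosome 1, 154897210 to 154909467) had 13.8, 8.76 and 10.8 CPM in the parental libraries and 21.7, 14.1 and 12.1 CPM in KO1-1, KO1-2 and KO2-1. The KO1 libraries exceeded their partners by 0.62 and 0.63 and KO2-1 exceeded parental 3 by 0.15, all on the log2 scale. PMVK rose in the dated pairs with the block by 0.62 (SE 0.16, limma adjusted p = 0.0311). MVK averaged 16.1 ± 4.30 against 13.3 ± 2.86 CPM and MVD 22.8 ± 7.53 against 19.1 ± 1.30 CPM. The MVD difference sat in the undated pair, at 0.61, against 0.0047 and −0.0030 in the dated pairs. MVK overlaps MMAB on the opposite strand.

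IDI1, which interconverts the isoprenoid building blocks isopentenyl and dimethylallyl diphosphate, gave the lowest adjusted p among the members in both blocked fits. IDI1 (ENSG00000067064, chromosome 10, 1085848 to 1095110) had 58.1, 91.3 and 71.4 CPM in the parental and 103, 131 and 119 CPM in the UBR7KO libraries. The lowest UBR7KO library lay above the highest parental one, and the mean was 118 ± 13.6 against 73.6 ± 16.7 CPM (SD, n = 3 each), 1.60 times as high. Its log2 difference was 0.69 over the 6 libraries (SE 0.22, limma adjusted p = 1; with the block SE 0.11 and adjusted p = 0.313). With the block, IDI1 rose in the dated pairs by 0.67 (SE 0.12, limma adjusted p = 0.00259), and leaving out any 1 of the 6 libraries kept its 6-library difference between 0.53 and 0.85. Without parental 1 its dated difference was 0.34.

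FDPS (ENSG00000160752, chromosome 1, 155278539 to 155290457), which builds farnesyl diphosphate and whose product feeds both sterols and protein prenylation, had 108, 85.2 and 93.5 CPM in the parental and 148, 135 and 133 CPM in the UBR7KO libraries. The groups did not overlap, and the 3 pairs differed by 0.46, 0.65 and 0.51 on the log2 scale. Over the 6 libraries its difference was 0.54 (SE 0.19, limma adjusted p = 1; with the block SE 0.11 and adjusted p = 0.375), and in the dated pairs with the block it rose by 0.56 (SE 0.12, limma adjusted p = 0.00937). GGPS1, which draws farnesyl diphosphate off toward geranylgeranyl groups, had 115, 93.1 and 88.8 CPM in the parental and 98.1, 114 and 98.0 CPM in the UBR7KO libraries. These ranges overlapped, the pairs pointed both ways (−0.22, 0.29 and 0.14), and its 6-library difference was 0.069 (SE 0.20, limma adjusted p = 1). FDPS overlaps RUSC1-AS1 and GGPS1 overlaps ARID4B, both on the opposite strand.

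**Figure D2:**
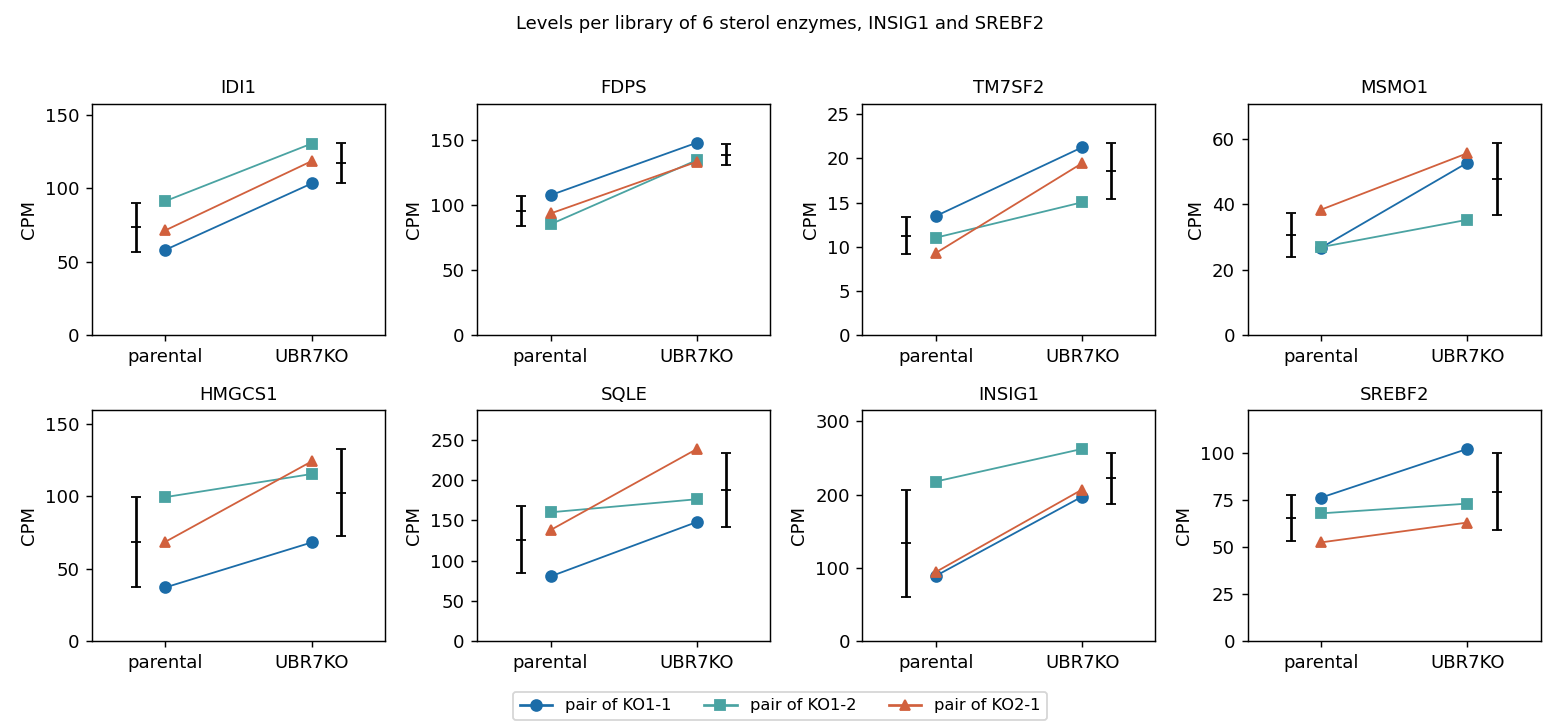
CPM per library (y axis, from 0) of IDI1, FDPS, TM7SF2, MSMO1, HMGCS1, SQLE, INSIG1 and SREBF2 in parental and UBR7KO cells (x axis). Coloured lines join the libraries of a date pair, and black bars give the group mean ± SD over 3 libraries. Every line slopes upward, while the groups overlap for MSMO1, HMGCS1, SQLE, INSIG1 and SREBF2.

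From squalene onward the first committed enzymes were FDFT1 (squalene synthase), SQLE (squalene epoxidase, a rate-limiting step) and LSS (lanosterol synthase). SQLE (ENSG00000104549, chromosome 8) had 80.3, 160 and 138 CPM in the parental and 148, 176 and 238 CPM in the UBR7KO libraries. The pairs differed by 0.87, 0.14 and 0.79 on the log2 scale, so that the pair of KO1-2 stood apart from the others. Over the 6 libraries the difference was 0.60 (SE 0.30, limma adjusted p = 1; with the block SE 0.15 and adjusted p = 0.556). In the dated pairs with the block it was 0.51 (SE 0.15, limma adjusted p = 0.0779), and it ran from 0.014 without parental 1 to 1.00 without parental 2.

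LSS had 48.0, 44.0 and 43.5 CPM in the parental and 67.4, 41.3 and 60.4 CPM in the UBR7KO libraries, so KO1-2 lay below every parental library while the other UBR7KO libraries lay above all of them. FDFT1 showed the same order of pairs, with differences of 0.63, −0.16 and 0.43, and averaged 110 ± 22.2 against 89.8 ± 20.9 CPM. Neither passed the test in any limma fit. LSS overlaps AP001468.1 on the opposite strand.

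Lanosterol is next demethylated and reduced by CYP51A1, TM7SF2, MSMO1, NSDHL and HSD17B7. TM7SF2 (ENSG00000149809, chromosome 11, 64879317 to 64883856), a sterol reductase, had 13.5, 11.0 and 9.27 CPM in the parental and 21.3, 15.0 and 19.5 CPM in the UBR7KO libraries. The groups did not overlap, and the mean was 1.65 times as high in UBR7KO. Its log2 difference was 0.68 (SE 0.26, limma adjusted p = 1; with the block SE 0.16 and adjusted p = 0.483), and 0.52 in the dated pairs with the block (SE 0.16, limma adjusted p = 0.0785). TM7SF2 overlaps VPS51.

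MSMO1 (ENSG00000052802, chromosome 4, 166248775 to 166264312), a methylsterol oxygenase, had 26.6, 26.9 and 38.3 CPM in the parental and 52.7, 35.2 and 55.6 CPM in the UBR7KO libraries. Only KO1-2 fell inside the parental range, and it too lay above its own partner. MSMO1 rose in the dated pairs with the block by 0.67 (SE 0.15, limma adjusted p = 0.0132), and its 6-library difference was 0.62 (SE 0.25, limma adjusted p = 1). NSDHL averaged 39.5 ± 14.4 against 31.0 ± 11.0 CPM with pair differences of 0.38, 0.28 and 0.36. CYP51A1 and HSD17B7 were low, at 6.02 to 13.3 and 6.79 to 9.30 CPM over the 6 libraries, and each had 1 pair below 0.

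The last steps are catalysed by EBP (a sterol isomerase), SC5D (a sterol desaturase) and DHCR7, which completes cholesterol. SC5D was the 1 sterol enzyme with a 6-library difference below 0, at 61.1, 84.3 and 102 CPM in the parental and 45.8, 65.8 and 105 CPM in the UBR7KO libraries. The pairs of KO1-1 and KO1-2 gave −0.41 and −0.35 and that of KO2-1 gave 0.043, and the 6-library difference was −0.24 (SE 0.32, limma adjusted p = 1). With the block in the dated pairs it was −0.38 (SE 0.12, limma adjusted p = 0.0844). DHCR7 averaged 83.4 ± 33.6 against 64.2 ± 25.7 CPM with pair differences of 0.46, 0.27 and 0.38, and EBP 88.3 ± 21.3 against 84.7 ± 21.8 CPM with pair differences of 0.080, 0.017 and 0.093. DHCR7 in parental 3 and KO2-1 stood at 93.8 and 122 CPM, above the 47.3 to 65.7 CPM of the 4 dated libraries. It overlaps RP11-660L16.2 on the opposite strand.

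Fatty acid synthesis begins with the supply of acetyl-CoA by ACLY, which cleaves citrate, and ACSS2, which activates acetate. ACACA then makes malonyl-CoA and FASN joins it into palmitate. ACLY (ENSG00000131473, chromosome 17, 40023161 to 40086795) had 302, 456 and 587 CPM in parental 1, 2 and 3 and 498, 557 and 409 CPM in KO1-1, KO1-2 and KO2-1. The KO1 libraries lay above their partners by 0.72 and 0.29 on the log2 scale, and KO2-1 differed from its partner by −0.52. ACLY rose in the dated pairs with the block by 0.50 (SE 0.13, limma adjusted p = 0.0318), while its 6-library difference was 0.16 (SE 0.29, limma adjusted p = 1).

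ACACA (ENSG00000132142, chromosome 17, 35441923 to 35766909) had 113, 97.1 and 112 CPM in the parental and 129, 128 and 65.2 CPM in the UBR7KO libraries. Both KO1 libraries lay above all parental libraries and KO2-1 below all of them, so that the group means, 107 ± 36.5 and 108 ± 9.08 CPM, were nearly equal. FASN (ENSG00000169710, chromosome 17, 80036214 to 80056208) had 253, 199 and 524 CPM in the parental and 362, 260 and 494 CPM in the UBR7KO libraries. Both libraries of the undated pair stood above the other 4, and FASN rose in the dated pairs with the block by 0.45 (SE 0.12, limma adjusted p = 0.0371). ACSS2 averaged 20.5 ± 4.72 against 18.4 ± 2.65 CPM and had 1 pair below 0. It overlaps GGT7 on the opposite strand.

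Palmitate is lengthened by ELOVL6 and desaturated by SCD, and the desaturases FADS1 and FADS2 act on polyunsaturated fatty acids. SCD had 261, 482 and 349 CPM in the parental and 367, 472 and 448 CPM in the UBR7KO libraries. Its ranges overlapped, with pair differences of 0.49, −0.031 and 0.36. FADS2 (ENSG00000134824, chromosome 11, 61560452 to 61634826) had 51.1, 50.0 and 29.6 CPM in the parental and 65.2, 60.5 and 83.8 CPM in the UBR7KO libraries. The groups did not overlap, but parental 3 held the lowest and KO2-1 the highest of the 6 values. Its 6-library difference was 0.69 (SE 0.26, limma adjusted p = 1; with the block SE 0.24 and adjusted p = 0.817), and in the dated pairs it was 0.31 (with the block SE 0.12, limma adjusted p = 0.188). FADS1, its neighbour on the opposite strand, differed by 0.24, 0.30 and 0.34 in the 3 pairs and averaged 134 ± 35.9 against 109 ± 31.8 CPM. FADS1 and FADS2 overlap each other, and FADS2 also overlaps FEN1, so reads of these genes may be shared. ELOVL6 averaged 43.6 ± 13.7 against 40.8 ± 9.53 CPM.

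**Figure D3:**
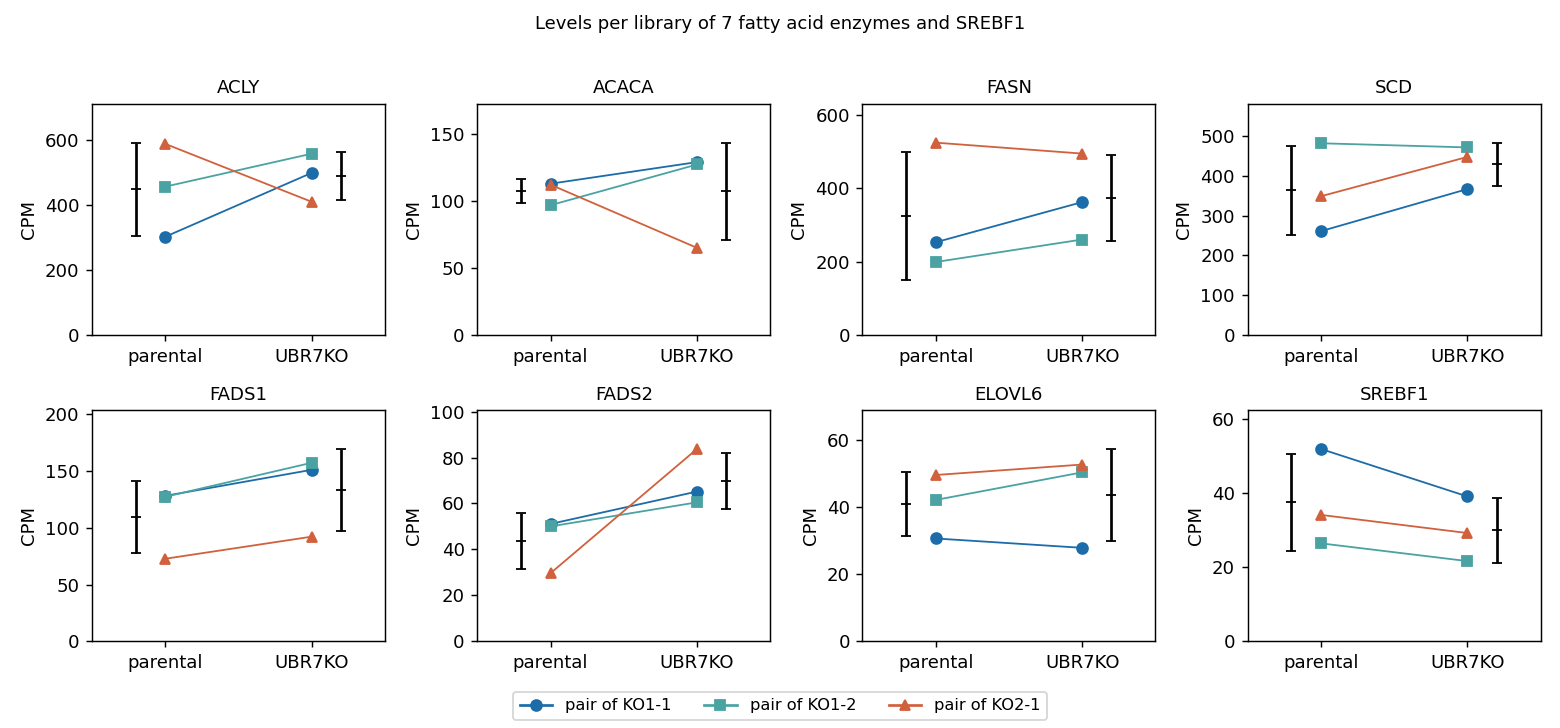
CPM per library (y axis, from 0) of ACLY, ACACA, FASN, SCD, FADS1, FADS2, ELOVL6 and SREBF1 in parental and UBR7KO cells (x axis). Lines join the libraries of a date pair, and black bars give the group mean ± SD over 3 libraries. The KO2-1 line slopes down for ACLY and ACACA while both KO1 lines slope up, and for FADS2 it climbs from 29.6 to 83.8 CPM.

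The difference between lines was tested directly, as the change in the undated KO2 pair minus the mean change in the dated KO1 pairs. It was called for 3 members, all of them fatty acid enzymes. FADS2 was higher by 1.16 (log2, SE 0.21, limma adjusted p = 0.00111), where 1.71% of all tested genes were called higher. ACLY was lower, with a difference of −1.03 (SE 0.23, limma adjusted p = 0.00678), and so was ACACA, with a difference of −1.07 (SE 0.21, limma adjusted p = 0.00185), where 3.32% of all tested genes were called lower. A single KO2 library and 1 residual degree of freedom stand behind these tests, so the spread comes from the KO1 pairs and from other genes, and the undated pair is assumed to vary like the dated ones. Once the median of the genes within 10 Mb was subtracted, ACLY (−0.63, limma adjusted p = 0.280) and ACACA (−0.58, adjusted p = 0.194) were no longer called, and FADS2 was (1.10, adjusted p = 0.00536). That step moved the calls over all genes from 234 higher and 455 lower to 217 higher and 232 lower. None of the 19 sterol enzymes and none of the 7 regulators was called in this test.

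INSIG1 had the largest 6-library difference of all 35 members. INSIG1 (ENSG00000186480, chromosome 7, 155089486 to 155101945) had 89.1, 218 and 94.4 CPM in the parental and 197, 262 and 207 CPM in the UBR7KO libraries. Parental 2 lay above KO1-1 and KO2-1, so the groups overlapped, and the pairs differed by 1.14, 0.27 and 1.12 on the log2 scale. Parental values spanned 2.44-fold and UBR7KO values 1.33-fold. The 6-library difference was 0.84 (SE 0.34, limma adjusted p = 1; with the block SE 0.18 and adjusted p = 0.480), and 0.70 in the dated pairs with the block (SE 0.18, limma adjusted p = 0.0619). The dated difference ran from 0.062 without parental 1 to 1.34 without parental 2. INSIG2, the second anchor of SCAP, had 14.4, 15.3 and 9.54 CPM in the parental and 13.2, 16.3 and 10.5 CPM in the UBR7KO libraries, with a difference of 0.030 (SE 0.29, limma adjusted p = 1).

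SREBF1 (ENSG00000072310, chromosome 17, 17713713 to 17740325) had 51.9, 26.4 and 34.1 CPM in the parental and 39.1, 21.6 and 29.2 CPM in the UBR7KO libraries. Every UBR7KO library lay below its own partner, with log2 differences of −0.40, −0.28 and −0.22, while the groups overlapped. The 6-library difference was −0.30 (SE 0.31, limma adjusted p = 1; with the block SE 0.12 and adjusted p = 0.841). SREBF1 overlaps RAI1 on the opposite strand. SREBF2 (ENSG00000198911, chromosome 22, 42229109 to 42303312), whose promoter holds the sterol regulatory element core shown above, had 76.3, 67.9 and 52.5 CPM in the parental and 102, 73.1 and 63.1 CPM in the UBR7KO libraries. Every UBR7KO library lay above its partner, and the difference was 0.26 (SE 0.24, limma adjusted p = 1; with the block SE 0.11 and adjusted p = 0.882).

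Among the proteins that move and cut SREBP, SCAP had 127, 89.8 and 113 CPM in the parental and 158, 102 and 111 CPM in the UBR7KO libraries. These ranges overlapped, and the undated pair was level at −0.019. MBTPS1 averaged 165 ± 18.8 against 132 ± 19.9 CPM with pair differences of 0.41, 0.27 and 0.27, and MBTPS2 differed by 0.083, 0.37 and −0.016. STARD4, which carries cholesterol between membranes, had 35.2, 26.4 and 19.4 CPM in the parental and 37.1, 28.7 and 22.1 CPM in the UBR7KO libraries. Its pair differences were small and of 1 sign (0.072, 0.12 and 0.18), with a 6-library difference of 0.12 (SE 0.29, limma adjusted p = 1).

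Spread between libraries was of the same order in both genotypes. The median SD of log2(CPM + 1) over the 35 members was 0.34 in parental and 0.35 in UBR7KO libraries, and over all tested genes it was 0.34 and 0.31. It was smaller in UBR7KO than in parental libraries for 20 of the 35 members, where it was smaller for 56.5% of all tested genes.

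Whole chromosome regions were shifted between paired libraries, so each member was also read against its neighbours. For every gene and library the median of the genes on the same chromosome that start within 10 Mb was subtracted, and the fit was repeated. The neighbours of SREBF1, ACLY, ACACA and FASN on chromosome 17 lay lower in the KO2 pair, with median log2 differences of −0.27, −0.32, −0.39 and −0.30. Those of SREBF1 also lay lower in the pairs of KO1-1 and KO1-2, at −0.25 and −0.11. The neighbours of INSIG1 lay higher by 0.39 in the KO2 pair. Those of PMVK and FDPS on chromosome 1 lay higher by 0.17 in the pair of KO1-1 and by 0.27 and 0.28 in that of KO1-2, and those of IDI1 by 0.10 and 0.21.

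After the subtraction the medians stood at 0.28 for sterol enzymes (17 of 19 above 0), 0.18 for fatty acid enzymes (6 of 8) and 0.20 for regulators (6 of 7), against 0.0011 over all tested genes. By pair (KO1-1, KO1-2, then KO2-1) the sterol enzymes had medians of 0.45, 0.18 and 0.40. Fatty acid enzymes had medians of 0.32, 0.21 and 0.17, and regulators of 0.31, 0.075 and 0.16. Limma on the 6 libraries called 0 members, where 0.0% of all genes were called, and with the block it also called 0 (lowest adjusted p = 0.316), where 0.0073% rose and 0.0219% fell. Limma without the block called 0 in the dated pairs, where 0.0% of all tested genes were called.

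With the block in the dated pairs 6 members rose after the subtraction, HMGCS1, IDI1, SQLE, TM7SF2, MSMO1 and INSIG1, where 2.25% of all tested genes did. None of the members fell, where 2.19% of all tested genes did. HMGCS1 (0.51, limma adjusted p = 0.00545), IDI1 (0.55, adjusted p = 0.00200) and MSMO1 (0.68, adjusted p = 0.000282) were called with and without the subtraction. SQLE (0.48, adjusted p = 0.0105), TM7SF2 (0.53, adjusted p = 0.0382) and INSIG1 (0.72, adjusted p = 7.79e-06) were called only with it. Their differences without it were 0.51, 0.52 and 0.70, so the new calls reflect the error of the fit more than the size of the difference. The 2 dated pairs were far apart after the subtraction for INSIG1 (1.11 and 0.21), MSMO1 (1.01 and 0.29), SQLE (0.84 and 0.14), HMGCS1 (0.83 and 0.070) and IDI1 (0.72 and 0.30). For all 6 members called, the error in this fit was that of other genes at a like level (SE 0.13 for INSIG1, HMGCS1, IDI1 and SQLE). The distance between a member's own 2 dated pairs did not enter that error, so these adjusted p-values do not measure it. FDPS (0.31, adjusted p = 0.172), PMVK (0.39, adjusted p = 0.211), ACLY (0.42, adjusted p = 0.0659) and FASN (0.32, adjusted p = 0.183) were called only without the subtraction. SREBF1 stood at −0.15, −0.16 and 0.052 in the 3 pairs once its neighbours were taken out, and was no longer below 0 in every pair.

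**Figure D4:**
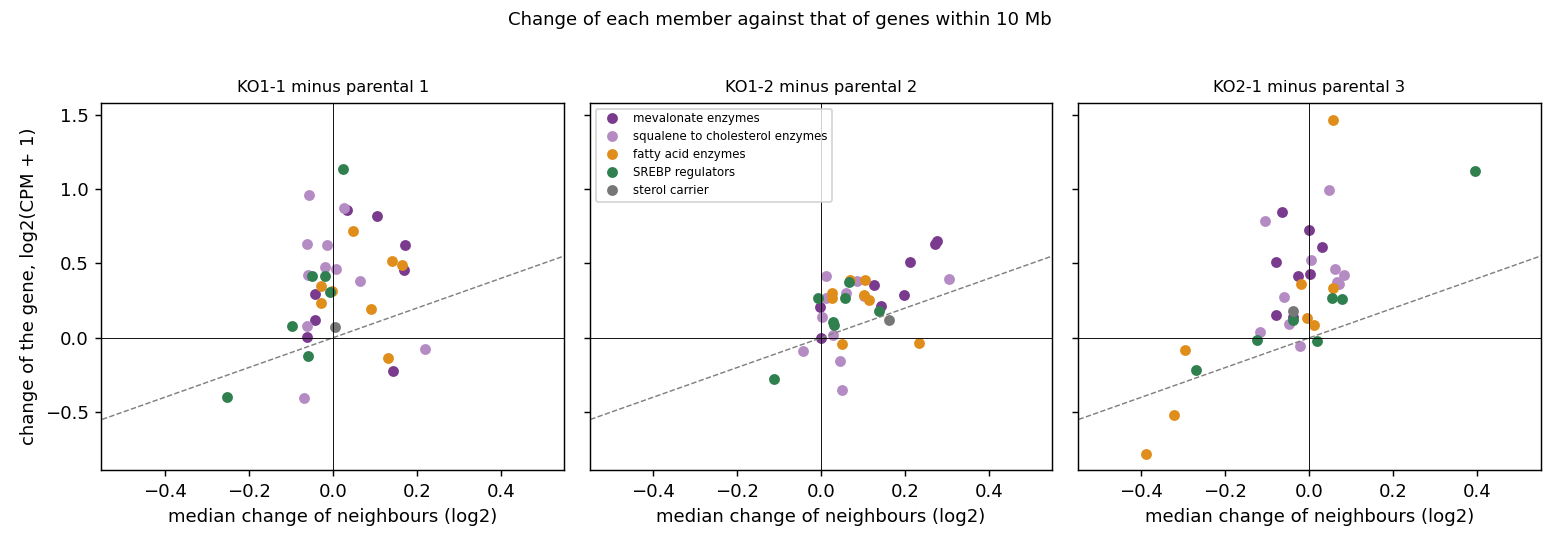
Log2 difference of each of the 35 genes (y axis) against the median log2 difference of the genes that start within 10 Mb of it (x axis) in each date pair, coloured by role. The dashed line marks equal change. Most sterol enzymes lie above the line in each pair: 16, 14 and 18 of 19 in those of KO1-1, KO1-2 and KO2-1. In the KO2-1 panel the chromosome 17 genes sit to the left, with neighbours between −0.39 and −0.27, and INSIG1 sits to the right.

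Other genes of lipid metabolism were read from lists chosen by function. Of 11 other SREBP-linked genes 6 lay above 0 over the 6 libraries, with a median of 0.0095 and 0 called. SLC25A1, the mitochondrial citrate carrier that feeds ACLY, had 62.7, 48.3 and 63.1 CPM in the parental and 93.6, 61.5 and 103 CPM in the UBR7KO libraries. It rose in the dated pairs with the block by 0.46 (SE 0.12, limma adjusted p = 0.0373), the 1 call of that list. TMEM97, RDH11, GPAM, ACSL3 and LPIN1, also linked to SREBP, had 6-library differences below 0, from −0.20 for LPIN1 to −0.011 for ACSL3.

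Of 8 genes of the LXR pathway, which senses oxysterols and exports cholesterol, 5 lay above 0 (median 0.061), and the exporter ABCA1 stood at −0.088 and ABCG1 at 0.25 without being called. APOE, an apolipoprotein made under LXR control, was the 1 member of that list called in the dated pairs with the block. There it rose by 0.98 (SE 0.17, limma adjusted p = 0.00117). APOE had 12.1, 8.35 and 4.39 CPM in the parental and 21.6, 20.0 and 4.86 CPM in the UBR7KO libraries. Of 7 sterol handling genes 6 lay above 0 (median 0.065), the largest being SOAT1 (0.16) and LIPA (0.15), and 0 were called in either fit. The 9 genes that use farnesyl and geranylgeranyl diphosphate outside sterol synthesis had 3 above and 6 below 0 (median −0.091), with DHDDS lowest at −0.27. The 13 genes of fatty acid oxidation had 7 above and 6 below 0 (median 0.028), and neither list had a call in the 6-library fits or in the dated pairs with the block.

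Open chromatin at the starts of the members was read from the ATAC peaks that the authors called in each library alone. The UBR7KO ATAC libraries carry the label of KO2-1, whose UBR7 RNA was not lower than in parental libraries. Line KO1 has no ATAC library under its label. A peak lay within 1 kb of the start for 26 and 33 members in parental ATAC libraries 1 and 2, and for 26 and 32 in UBR7KO libraries 1 and 2. Many of these calls were weak. The median −log10 q at members with a peak was 1.22, 1.70, 1.43 and 2.38 in the same library order. Over all tested genes with a peak it was 1.07, 1.47, 1.25 and 2.11. The 4 libraries held 10507, 38529, 15310 and 45920 peaks in that order, and 55.5%, 80.8%, 70.5% and 83.3% of all tested genes had one at the start. In each genotype the library with more peaks had more members with a peak at the start. The members with a peak in all 4 libraries numbered 24 (14 sterol enzymes, 4 fatty acid enzymes, 5 regulators and STARD4), where 52.9% of all tested genes had one. ACAT2 and CYP51A1 had none in any library. IDI1, FDPS, MSMO1, HMGCS1, SQLE, INSIG1 and SREBF2 had a peak at the start in all 4, and TM7SF2, FADS1, ACSS2 and ELOVL6 in the more deeply called library of each genotype alone. With 2 libraries of each genotype no exact permutation test could reach p under 0.05, and the peak heights were not compared.

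GFP-UBR7 peaks came from 1 library and have no replicate check. A peak lay within 1 kb of the start for 10 members (ACACA, ACSS2, FASN, GGPS1, MBTPS1, MBTPS2, MSMO1, SCAP, SREBF1 and STARD4), where 24.9% of all tested genes had one. These are 28.6% of the 35, a share near that of all tested genes, and comprise 2 of 19 sterol enzymes, 3 of 8 fatty acid enzymes, 4 of 7 regulators and STARD4. IDI1, FDPS, HMGCS1, PMVK, SQLE, TM7SF2, INSIG1, ACLY and FADS2 had no peak there. The highest score, as the authors give it, was at ACSS2 (131, rank 530 of 5895 peaks) and the next at GGPS1 (101, rank 1029), while the MSMO1 peak ranked 2662. The MSMO1 peak lies at chromosome 4, 166248169 to 166248340, before the gene's listed start at 166248775.

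In the authors' deposited table the members' own log2 fold changes were positive for 32 and negative for 3, where 48.0% of all genes in it were positive. The authors' deposited table gave a p under 0.05 to 3 members, IDI1 (p = 0.0351), TM7SF2 (p = 0.0288) and FADS2 (p = 0.0228), and an adjusted p under 0.05 to 0.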

How the data were processed

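RNA, open chromatin and GFP-UBR7 binding were measured in HEK293T cells. Per the submitters' processing notes, the tools include TopHat2 2.1.0, HTSeq 0.6.1, edgeR, Bowtie2 2.3.1 and MACS2, with builds hg19 (GRCh37) and hg38, and no role is given for each. Starts of 34 of the 35 members lie more than 10 kb from RefSeq's GRCh38 starts, so gene positions are of GRCh37 type, counted from 1. Peak positions, also counted from 1, were not compared with a build and were read against these gene positions. Per ATAC library, 55.5% to 83.3% of all tested genes had a peak within 1 kb of the start so placed. The deposited RNA table gives CPM per library, scaled to the library total alone, and 99.7% to 99.8% of reads fell in its genes. Reads recovered from the spacing of the CPM values were whole for 100% of values within 0.001 read. The authors' deposited log2 fold change and p-value columns come from edgeR per the file headers. The deposited ATAC lists give a −log10 q per peak, called in each library alone, and the score of the deposited GFP-UBR7 list has no stated scale.

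Log2(CPM + 1) of genes above 1 CPM in at least 3 libraries was fitted with limma 3.58.1 (intensity trend, robust) in R 4.3.3, and p-values were Benjamini-Hochberg adjusted over all genes, with calls at 0.05. Neighbour medians used tested genes outside the 35, at least 5 per gene. edgeR 4.0.16 and DESeq2 1.42.0 were run on the recovered reads. The unblocked limma fit, with and without the neighbour step, was run on simulated data of 3 against 3 libraries without date pairs. The blocked fits and the test between lines were not simulated. Tables and plots used Python 3.11.15, pandas 2.3.3 and matplotlib 3.10.9. Date codes in the labels give 2 of the pairs, and the 2 undated libraries were taken as the third. Deviations from group means correlated across genes at 0.758, 0.736 and 0.633 within the pairs and at −0.443 to −0.251 otherwise, where centring on group means ties these values together. Per-library values are printed for members called in any fit, the extremes of each role and 11 members of central role. Members and lists were chosen with earlier results of these data known. CUT&RUN samples were not used here, and 1 of the lists of other lipid genes is not reported here.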

Additional observations from a re-analysis of the deposited data

Results flagged for a closer look

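In a test of the difference itself, the change in the single KO2 pair was called different from that in the KO1 pairs for 3 members. For ACLY the KO2 change minus the KO1 change was −1.03 (log2, SE 0.23, limma adjusted p = 0.00678), with pair differences of 0.72 and 0.29 in KO1 and −0.52 in KO2. After the median of genes within 10 Mb was taken out it was −0.63 (limma adjusted p = 0.280). For ACACA it was −1.07 (SE 0.21, limma adjusted p = 0.00185), with pair differences of 0.19 and 0.39 in KO1 and −0.78 in KO2, and −0.58 after the neighbours were taken out (limma adjusted p = 0.194). For FADS2 it was 1.16 (SE 0.21, limma adjusted p = 0.00111), with pair differences of 0.35 and 0.27 in KO1 and 1.47 in KO2, and 1.10 after the neighbours were taken out (limma adjusted p = 0.00536). Each test rests on 1 KO2 library, whose pair is assumed to vary like the KO1 pairs, and line KO2 and the undated preparation cannot be told apart.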

How the results depend on the processing

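Pairing by date changed the calls. In the dated pairs, where 0 members were called without a block, the date pair as a replicate block gave 7 higher by limma, 4 with TMM scaling as well, 4 by edgeR's quasi-likelihood test and 1 by DESeq2, and after neighbour subtraction 6. Over the 6 libraries DESeq2 with the block called 3 where limma called 0. The line difference toward lower values was called for 0 members after neighbour subtraction, against 2 before. With a −log10 q of at least 5 asked of every ATAC library, 0 members had a peak at the start in all 4. That count was 24 without the limit, and 0.022% of all tested genes passed with it. When the lower-scoring 50% of GFP-UBR7 peaks were left out, 6 of the 10 members kept a peak, where 14.9% of all tested genes had one. GGPS1 turned sign over the 6 libraries without the pair of KO1-2 (−0.040), and in the dated pairs with TMM scaling (−0.00029, with and without the block), the blocked quasi-likelihood test (−0.0020) and blocked DESeq2 (−0.0057). ACLY turned to −0.12 over the 6 libraries without the pair of KO1-1.

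Leaving out single libraries gave these lowest and highest values. The 6-library medians ran from 0.22 (without KO2-1) to 0.47 for sterol enzymes, from 0.11 (without parental 1) to 0.26 for fatty acid enzymes and from 0.033 (without KO1-1) to 0.29 for regulators, and the dated medians from 0.24 to 0.33 for fatty acid enzymes and from 0.023 to 0.31 for regulators. In the dated pairs, sign turned without parental 1 for HMGCS1 (−0.16 to 1.23) and SCD (−0.21 to 0.67), without parental 1 or KO1-2 for SREBF1 (−0.81 to 0.14), without KO1-1 for LSS (−0.15 to 0.54), without parental 2 or KO1-1 for SCAP (−0.071 to 0.56), without parental 2 or KO1-2 for GGPS1 (−0.12 to 0.18), without parental 2 or KO1-1 for INSIG2 (−0.16 to 0.13) and without parental 2 or KO1-1 for STARD4 (−0.11 to 0.30). Over the 6 libraries it turned without parental 3 or KO1-2 for GGPS1 (−0.0031 to 0.18), without KO1-1 for SC5D (−0.55 to 0.043), without parental 1 for ACLY (−0.095 to 0.38), without KO2-1 for ACACA (−0.23 to 0.26), without parental 2 for FASN (−0.016 to 0.68), without KO1-1 for SCAP (−0.032 to 0.28), without parental 3 or KO1-2 for INSIG2 (−0.17 to 0.18) and without parental 3 or KO1-1 for STARD4 (−0.086 to 0.33).

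Other values moved by over 1.5 times with no turn of sign. In the dated pairs these were TM7SF2 (0.28 without KO1-1), SC5D (−0.64 to −0.12), ACACA (0.18 without parental 2) and SREBF2 (0.022 without KO1-1 to 0.50 without KO1-2), beside those given with the calls. Over the 6 libraries they were HMGCS1 (0.26 without parental 1 to 0.96 without parental 2), PMVK (0.24 without KO1-1), SQLE (0.31 without parental 1), LSS (0.14 without KO1-1 to 0.49 without KO1-2), SCD (0.056 without parental 1 to 0.50 without parental 2), FADS2 (0.44 without parental 3), SREBF1 (−0.52 without parental 2 to −0.041 without parental 1) and SREBF2 (0.066 without KO1-1 to 0.41 without KO2-1).

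The cause of these turns was not tested. TMM scaling together with the block, DESeq2 with the block, the fits without a date pair and the line test after neighbour subtraction were chosen after seeing the data. Over all alternatives, named members gave 707 values of the same sign and call, 19 that gained a call and 30 that turned sign. With 3 libraries a group, their number limits the precision.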
